A study of Mus musculus with 32 samples.

Results

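The 33 genes described here belong to the amino acid and integrated stress response around the transcription factor ATF4, out of 25067 genes counted in bone marrow-derived macrophages (BMDMs). They were chosen by name, as ATF4 itself, known ATF4 target genes, and the kinases, substrate and phosphatase subunits that set eIF2 phosphorylation. Where a gene had several RefSeq transcripts, the one with most counts on average stood for it. All 33 were found in the table, and 28 passed a filter of a mean RPKM (tags scaled to transcript length and library total) over 1 in at least 1 group. Of these, 25 were over 1 RPKM in every group, and Trib3, Chac1 and Ddit4 only in some groups, among them those where they were high. Pycr1, Cth, Slc6a9, Bcat1 and Slc1a4 were over 1 RPKM in no group and were not tested.

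Macrophages were grown for 7 days, in medium with L929-conditioned medium, glutamine and non-essential amino acids, from the marrow of male C57Bl6/J mice aged 6 to 12 weeks. BMDM-Nur77-KO came from mice with a whole-body deletion of the nuclear receptor Nur77 (gene Nr4a1), made with a Cre driven by the CMV promoter and then bred free of Cre, and labelled cre. BMDM-WT came from wild-type mice, labelled wt. Both genotypes were left without lipopolysaccharide (LPS, the bacterial ligand of TLR4) at 0 h or received 100 ng/ml LPS for 1, 5 or 18 h, and each of the 8 groups has 4 libraries. The labels do not say whether the 4 libraries came from separate mice, so p-values measure the spread between these libraries, which may be technical.

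When amino acids run short, haem is lacking, double-stranded RNA appears or the endoplasmic reticulum is stressed, the kinases GCN2, HRI, PKR and PERK phosphorylate eIF2, the factor that brings the initiator tRNA to the ribosome. Most translation then falls, while the Atf4 mRNA is translated better because of short reading frames in its leader. ATF4 binds composite C/EBP-ATF elements with C/EBP partners and raises genes of amino acid synthesis, amino acid uptake, tRNA charging and stress output. It also raises an inducible phosphatase subunit that helps to remove the phosphate again. RNA-seq reads the mRNA levels of these genes, not the phosphorylation of eIF2 or the amount of ATF4 protein.

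The composite element TGATGNAA (N is any base) was searched on both strands of the RefSeq promoters of GRCm38.p6, from 250 bases before to 50 after each start. It was present in 6 of 33 promoters of 28 members, or 18.2%, and in 3.97% of all 32851 promoters of this length. These 6 windows are shown because they are the members' promoters that hold the element of ATF4 within the bases searched. Elements outside these bases were not searched for, and the members were chosen partly as known ATF4 targets. Capitals mark the element, written 5′ to 3′ on the strand of the gene.
Asns, chr6:7693200-7693257, minus strand: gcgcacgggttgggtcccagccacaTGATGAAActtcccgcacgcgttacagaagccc
Chac1, chr2:119351024-119351081, plus strand: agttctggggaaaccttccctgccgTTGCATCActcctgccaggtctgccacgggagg
Nupr1, chr7:126625548-126625605, minus strand: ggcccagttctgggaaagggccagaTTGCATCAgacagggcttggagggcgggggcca
Pycr1, chr11:120643819-120643876, minus strand: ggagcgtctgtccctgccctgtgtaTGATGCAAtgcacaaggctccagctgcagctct
Slc1a4, chr11:20332686-20332742, minus strand: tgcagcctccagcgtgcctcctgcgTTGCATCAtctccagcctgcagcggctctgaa
Trib3, chr2:152344033-152344071, minus strand: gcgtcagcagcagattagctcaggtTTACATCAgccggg
The element begins 23 bases before the start in Asns, 4 in Slc1a4, 103 in Pycr1, 110 in Nupr1 and 193 in Chac1, and 14 bases after it in Trib3. In Asns and Pycr1 it reads along the gene, and in the other promoters on the opposite strand. The palindromic cyclic AMP element TGACGTCA was searched in the same way, and 1 member held it, against 1.79% of all promoters. This was Ppp1r15a, 12 bases before its start, and its site overlaps no site of the other element.
Ppp1r15a, chr7:45526248-45526305, minus strand: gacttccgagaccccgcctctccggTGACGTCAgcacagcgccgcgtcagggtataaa
Slc7a5, Slc1a5, Eif4ebp1, Ppp1r15b and Cth have no entry in the promoter table. A match of letters is a description of the window and not evidence of binding.

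Library totals over the transcript kept for each gene were 8742362 to 15780926 counts. Macrophage markers were high in every library, with summed levels of 7 genes between 10900 and 18400 CPM (counts scaled to the library total, TMM-adjusted). The summed levels of 7 neutrophil markers were 11.8 to 36.7 CPM and those of 4 dendritic markers 0.61 to 21.8 CPM, highest at 5 h, and their part in the results was not tested. In bulk samples, fewer cells of a type and less RNA per cell cannot be told apart. Nr4a1 was lower in BMDM-Nur77-KO at 26.7% of the BMDM-WT level at 0 h and 43.6% at 1 h, so tags remained on this transcript in the knockout libraries. In BMDM-Nur77-KO it still rose 36.4-fold at 1 h of LPS, to a mean of 191 CPM. At 5 h it was at 34.3% of BMDM-WT (adjusted p = 0.042) and at 18 h at 72.4% (adjusted p = 0.68), with group means under 1 CPM. It stood at 19.4, 15.5, 25.7 and 18.1 CPM in BMDM-WT at 0 h and at 4.92, 4.61, 4.44 and 7 CPM in BMDM-Nur77-KO. The BMDM-Nur77-KO library labelled replicate 1 at 5 h and that labelled replicate 4 at 18 h stood apart from their groups. Their mean correlations with the other 3 libraries of the group (log2 of CPM plus 1) were 0.9672 and 0.9808, the 2 lowest of 32, where the others had 0.9816 to 0.9956. Replicate 1 at 5 h was the highest or the lowest library of its group for 23 of the 28 tested members and replicate 4 at 18 h for 20. Several differences between the genotypes are therefore also given without them, while the changes with LPS in BMDM-Nur77-KO include them.

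A member is called higher or lower where the Benjamini-Hochberg adjusted p of edgeR's quasi-likelihood test, over all 11279 genes tested, is under 0.05. Values are CPM for levels and log2 fold changes with their standard error (SE) for differences. Under LPS the members moved in 3 phases. At 1 h a small set rose, led by Ppp1r15a. At 5 h most called members were lower than at 0 h, while Ppp1r15b and Nupr1 were high. Most called genes of all were lower then too (40.1% lower and 30% higher in BMDM-WT). At 18 h Atf4, Ddit3, Trib3, Asns, Mthfd2, Sesn2 and Slc3a2 were all higher than at 0 h in both genotypes, and Slc1a5, Gadd45a, Shmt2 and Mthfd1l lower. Chac1 was higher as well, but it was tested only through BMDM-Nur77-KO at 18 h, so its rise is given as a description. The comparisons of a genotype share its 0 h libraries.

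**Figure D1:**
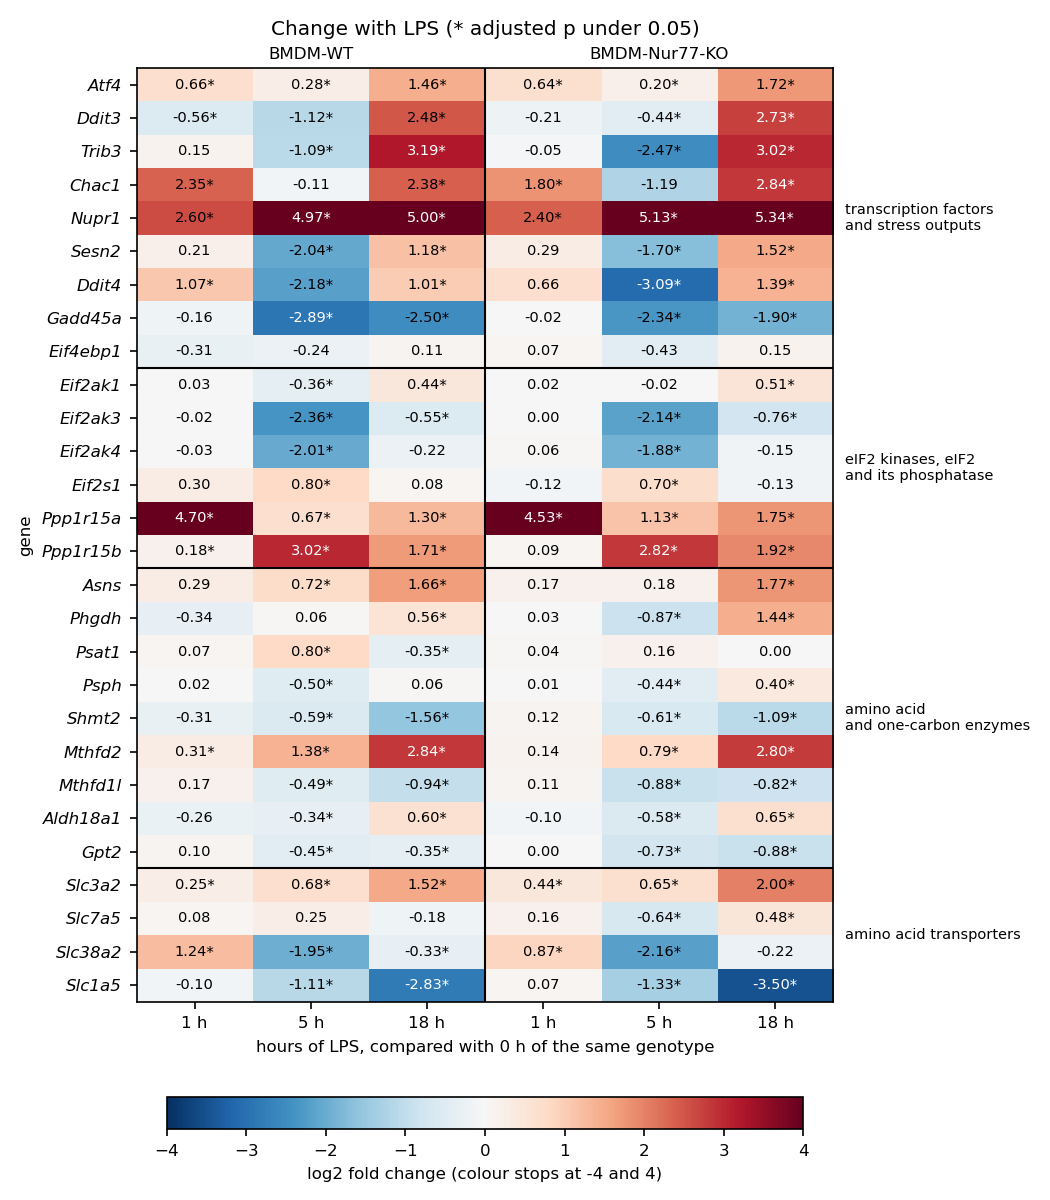
Log2 fold change of the 28 tested members at 1, 5 and 18 h of LPS against 0 h of the same genotype, BMDM-WT on the left and BMDM-Nur77-KO on the right, with genes in rows by role and an asterisk where the adjusted p is under 0.05. Ppp1r15a stands out at 1 h (4.70 in BMDM-WT), Ppp1r15b at 5 h (3.02) and Nupr1 at 5 and 18 h (4.97 and 5.00), while the column of 5 h holds most of the lower values. The values of Chac1 and Ddit4 at 5 h rest on 0 to 4 counts a library and depend on the prior count of the fit.

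In BMDM-WT at 1 h, 9 of the 28 tested members were higher and 1 lower, against 10.2% of all genes higher and 10.2% lower. The median log2 fold change of the members was 0.12, and that of all genes -0.03. In BMDM-Nur77-KO at 1 h, 6 were higher and 0 lower by edgeR (6.86% and 5.37% of all genes), with 7 and 0 members at an unadjusted p under 0.05. DESeq2's Wald test called 6 higher and 0 lower there. At 5 h the counts were 9 higher and 15 lower in BMDM-WT, beside 30% and 40.1% of all genes. They were 7 and 16 in BMDM-Nur77-KO, beside 32.2% and 39.1%. The median member stood at -0.35 in BMDM-WT and -0.59 in BMDM-Nur77-KO, where all genes stood at -0.14 and -0.12. At 18 h, 15 members were higher and 8 lower in BMDM-WT (32.3% and 33.9% of all genes), and 17 and 6 in BMDM-Nur77-KO (33.7% and 35.5%). The median was then 0.50 and 0.58, with all genes at -0.01 and -0.03. The counts include members that passed the filter only through groups where they were high, and give no test of the set.

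Atf4 (NM_009716, chr15:80255184-80257545) encodes the bZIP factor at the centre of the response. At 0 h it stood at 114, 106, 106 and 116 CPM in the BMDM-WT libraries and at 96.6, 110, 107 and 107 CPM in BMDM-Nur77-KO. After 1 h it was at 171, 169, 186 and 172 CPM in BMDM-WT and at 177, 165, 161 and 155 CPM in BMDM-Nur77-KO, above every library at 0 h. By 5 h it had returned to 140, 132, 126 and 137 CPM and to 122, 117, 118 and 129 CPM, close to but still above the 0 h libraries. At 18 h the libraries held 304, 306, 293 and 308 CPM in BMDM-WT and 346, 376, 354 and 310 CPM in BMDM-Nur77-KO, the highest levels of the course. The log2 fold changes in BMDM-WT were 0.66 (SE 0.06, adjusted p = 1.0e-09) at 1 h, 0.28 (SE 0.06, adjusted p = 3.0e-04) at 5 h and 1.46 (SE 0.06, adjusted p = 1.3e-18) at 18 h, a 2.74-fold rise. Per length, Atf4 was among the most abundant members, with 64 RPKM in BMDM-WT at 0 h and 201 RPKM in BMDM-Nur77-KO at 18 h.

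Ddit3 (NM_007837, chr10:127290793-127296291) encodes CHOP, a C/EBP factor of late stress. It stood at 21.9, 20, 17.7 and 21.3 CPM in BMDM-WT at 0 h and at 21.1, 24.5, 23.8 and 23.5 CPM in BMDM-Nur77-KO. At 1 h the BMDM-WT libraries had fallen to 13.9, 12.6, 15.9 and 12.3 CPM, whereas BMDM-Nur77-KO held 22.4, 20.9, 19.9 and 17.4 CPM. In this gene the first response to LPS in BMDM-WT was thus a fall, to 67.7% of the 0 h level (log2 fold change -0.56, SE 0.11, adjusted p = 3.1e-04). By 5 h the levels were 10.2, 9.79, 8.21 and 8.98 CPM in BMDM-WT and 22.1, 16.6, 16.3 and 13.8 CPM in BMDM-Nur77-KO. At 18 h they were 115, 116, 107 and 112 CPM and 133, 167, 150 and 166 CPM. No BMDM-Nur77-KO library at 1, 5 or 18 h overlapped the BMDM-WT libraries of the same time. The rise at 18 h against 0 h was 5.56-fold in BMDM-WT (log2 fold change 2.48, SE 0.11, adjusted p = 9.2e-19) and 6.62-fold in BMDM-Nur77-KO (2.73, SE 0.11, adjusted p = 6.6e-20). An exon of Mars (also named Mars1) on the opposite strand overlaps Ddit3 over 68 bases, so Ddit3 values are uncertain to that extent. Mars1 itself differed between the genotypes on the log2 scale by 0.01 (1 h), -0.37 (5 h) and -0.08 (18 h) and was not called. The libraries were strand-specific and were counted with the default settings of HOMER, whose strand option the sources used here do not name, so reads of such pairs may be mixed.

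Trib3 (NM_175093, chr2:152337425-152344060), a pseudokinase that dampens ATF4 and AKT, was low until 5 h and rose at 18 h. It stood at 1.91, 1.66, 1.29 and 2.1 CPM in BMDM-WT at 0 h and at 1.82, 2.59, 3.6 and 2.7 CPM in BMDM-Nur77-KO. At 1 h the values were 1.92, 1.2, 2.68 and 1.88 CPM and 2.22, 2.78, 2.07 and 3.3 CPM, within the range of 0 h or near it. At 5 h they had dropped to 0.797, 0.612, 1.33 and 0.473 CPM and 0.327, 0.336, 0.959 and 0.295 CPM, which is 3 to 12 counts per library. At 18 h Trib3 reached 16.8, 18.6, 14 and 14.2 CPM in BMDM-WT and 22.1, 25.7, 25.4 and 14.5 CPM in BMDM-Nur77-KO. These libraries all lay above every library of the earlier times, a 9.1-fold rise over 0 h in BMDM-WT (log2 fold change 3.19, SE 0.23, adjusted p = 2.2e-13). The genotypes overlapped at 18 h, and the lowest BMDM-Nur77-KO value was that of replicate 4.

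Nupr1 (NM_019738, chr7:126623246-126625470), a small chromatin-associated stress protein, had the largest change with LPS among the members. At 0 h it stood at 2.82, 2.28, 2.42 and 2.83 CPM in BMDM-WT and at 2.37, 2.65, 3.14 and 2.47 CPM in BMDM-Nur77-KO. The values were 18.8, 17.2, 11.8 and 14.7 CPM and 17.8, 11.7, 12.4 and 14.9 CPM at 1 h. Nupr1 had already risen at the time when Ddit3 and Trib3 had not. At 5 h it reached 73.8, 82.4, 80.8 and 87.2 CPM and 100, 116, 78.4 and 80 CPM. At 18 h it stood at 88.5, 89.8, 67.7 and 85.5 CPM and at 96.2, 98, 95.2 and 143 CPM. The log2 fold change in BMDM-WT was 2.60 (SE 0.19, adjusted p = 2.0e-12) at 1 h, 4.97 (SE 0.19, adjusted p = 1.4e-20) at 5 h and 5.00 (SE 0.19, adjusted p = 1.6e-20) at 18 h, a 32.1-fold rise.

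The remaining stress outputs were low at 5 h or changed little. Chac1 (NM_026929), which breaks down glutathione, had 1 to 7 counts per library in BMDM-WT at 0 h. Its levels there were 0.305, 0.363, 0.227 and 0.0725 CPM, and 0.182, 0.316, 0.536 and 0.318 CPM in BMDM-Nur77-KO. They were 0.711, 1.2, 2.07 and 1.25 CPM and 1.54, 1.05, 1.12 and 1.2 CPM at 1 h. Every library at 1 h was above every library at 0 h, and the gene rose 5.08-fold in BMDM-WT (log2 fold change 2.35, SE 0.42, adjusted p = 7.9e-05). At 5 h Chac1 was at 0.455, 0.245, 0.222 and 0 CPM and at 0.218, 0, 0.288 and 0.0982 CPM. After 18 h of LPS it was at 0.915, 1.72, 1.04 and 1.73 CPM and at 2.87, 2.5, 2.8 and 1.88 CPM. It thus had peaks at 1 and 18 h with values near those of 0 h between them. Chac1 was over 1 RPKM only in BMDM-Nur77-KO at 18 h and was tested through that group alone.

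Sesn2 (NM_144907), a leucine sensor that restrains mTORC1, fell from 16.3 CPM on average in BMDM-WT at 0 h to 24.3% of this at 5 h (adjusted p = 3.6e-10) and rose 2.27-fold at 18 h (adjusted p = 2.3e-07). Ddit4 (NM_029083), also known as REDD1 and likewise a brake on mTORC1, rose 2.1-fold at 1 h in BMDM-WT and stood at 2.02-fold the 0 h level at 18 h. It was over 1 RPKM only in BMDM-WT at 1 and 18 h and in BMDM-Nur77-KO at 18 h. These rises, in groups that let it be tested, are therefore given as a description. At 5 h it was at 22.1% of 0 h in BMDM-WT, a value that rests on 1 to 4 counts per library. Its highest group mean was 2.87 CPM, and in BMDM-Nur77-KO at 5 h it had 0 to 2 counts per library, so no fold is given for that group. Eif4ebp1 (NM_007918), the translational repressor 4E-BP1, was called at none of these times in either genotype, and its group means lay between 11.9 and 20.2 CPM. The 4E-BP1 values of BMDM-Nur77-KO at 5 h were 5.56, 12.3, 14.4 and 15.3 CPM, with replicate 1 far below the others.

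Gadd45a (NM_007836, chr6:67035096-67037407), a stress and growth arrest gene, went the other way and did not return. It stood at 40.9, 38.8, 41.7 and 38.7 CPM in BMDM-WT at 0 h and at 50.9, 41.6, 45.5 and 42.2 CPM in BMDM-Nur77-KO. At 1 h it was at 37.9, 36.9, 34.9 and 33.6 CPM and at 44.3, 43.3, 49.1 and 40.5 CPM. Then it dropped to 5.69, 4.9, 5.11 and 5.79 CPM and to 10.8, 8.98, 8.63 and 7.27 CPM at 5 h. At 18 h it stayed low, with 5.49, 7.34, 7.22 and 8.2 CPM and 10.5, 10.5, 13.7 and 13.4 CPM. In BMDM-WT the level at 5 h was 13.5% of that at 0 h (log2 fold change -2.89, SE 0.12, adjusted p = 2.7e-19) and at 18 h 17.7% (-2.5, SE 0.11, adjusted p = 2.8e-18). An exon of the opposite-strand gene E230016M11Rik, which had a mean of 42.8 counts per library, overlaps Gadd45a over 317 bases. Gadd45a itself had 40 to 50 counts per library in BMDM-WT at 5 h, so its low values are uncertain. Exons of opposite-strand genes also overlap Ppp1r15b over 640 bases, Eif2ak3 over 221, Shmt2 over 32 and Ppp1r15a over 12.

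**Figure D2:**
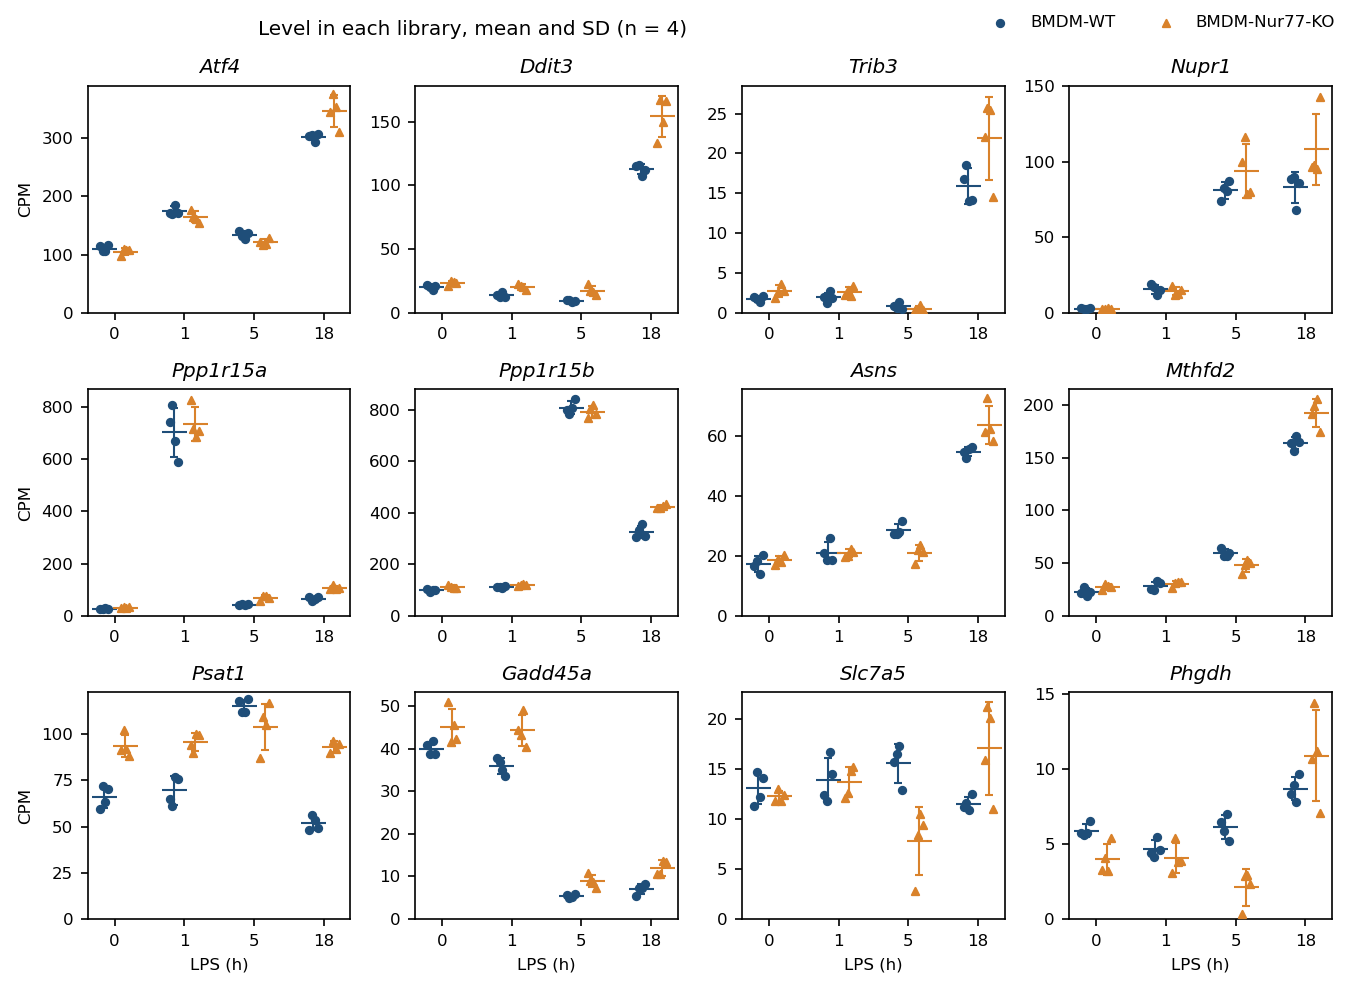
Level in CPM in each library of 12 members at 0, 1, 5 and 18 h of LPS, blue circles for BMDM-WT and orange triangles for BMDM-Nur77-KO, with the mean (horizontal line) and SD (bar) of the 4 libraries of each group. Ppp1r15a peaks at 1 h and Ppp1r15b at 5 h, while Atf4, Ddit3, Trib3, Asns and Mthfd2 are highest at 18 h. For Psat1 the genotypes are apart at 0, 1 and 18 h and overlap at 5 h.

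The genes that set eIF2 phosphorylation were ordered in time. Ppp1r15a (NM_008654, chr7:45522917-45526268), which encodes the inducible phosphatase subunit GADD34, stood at 26, 26.3, 28.6 and 27.1 CPM in BMDM-WT at 0 h and at 31, 32.9, 30.3 and 33.2 CPM in BMDM-Nur77-KO. After 1 h of LPS it reached 740, 807, 670 and 589 CPM and 827, 714, 685 and 709 CPM. This was a 26-fold rise in BMDM-WT (log2 fold change 4.70, SE 0.11, adjusted p = 5.0e-25) and a 23-fold one in BMDM-Nur77-KO (4.53, SE 0.11, adjusted p = 1.2e-24), the largest change of a member at this time. After 5 h of LPS it was back at 40, 45, 40.8 and 46.2 CPM and 56.1, 76.3, 77.8 and 68 CPM. After 18 h of LPS it stood at 70.3, 57.6, 64.7 and 72.9 CPM and at 102, 118, 104 and 106 CPM. All libraries at 5 and 18 h remained above those of 0 h of their genotype.

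Ppp1r15b (NM_133819, chr1:133131166-133139800) encodes CReP, the constitutive counterpart of GADD34. At 0 h it stood at 103, 94.1, 102 and 101 CPM in BMDM-WT and at 121, 111, 108 and 109 CPM in BMDM-Nur77-KO. At 1 h, when Ppp1r15a was at its peak, it held 114, 114, 109 and 116 CPM and 116, 120, 125 and 118 CPM. At 5 h it rose to 800, 783, 809 and 843 CPM and 767, 805, 818 and 783 CPM. At 18 h it was at 308, 334, 358 and 309 CPM and at 418, 419, 425 and 434 CPM. The order of the times was thus the same in both genotypes, with an 8.1-fold rise at 5 h (log2 fold change 3.02, SE 0.06, adjusted p = 3.4e-27) and a 3.28-fold one at 18 h (1.71, SE 0.06, adjusted p = 1.6e-21) in BMDM-WT. The 2 paralogs therefore peaked at different times, Ppp1r15a at 1 h with 315 RPKM in BMDM-Nur77-KO and Ppp1r15b at 5 h with 145 RPKM in BMDM-WT.

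Of the eIF2 kinases, Eif2ak3 (NM_010121), which encodes the endoplasmic reticulum kinase PERK, and Eif2ak4 (NM_013719), which encodes the amino acid sensor GCN2, fell sharply at 5 h. Eif2ak3 went from 33 CPM at 0 h in BMDM-WT (SD 1.40, n = 4) to 6.38 CPM (SD 0.409), which is 19.4% (adjusted p = 5.6e-21). Eif2ak4 went from 33.4 CPM (SD 2.95) to 8.28 CPM (SD 2.01), or 24.8% (adjusted p = 2.2e-15). At 18 h Eif2ak4 had returned to 28.6 CPM and was not called, while Eif2ak3, at 22.5 CPM, was still lower (68.4%, adjusted p = 1.3e-07). Eif2ak1 (NM_013557), which encodes the haem-regulated kinase HRI, moved little, to 77.7% at 5 h (adjusted p = 0.018) and 136% at 18 h (adjusted p = 0.0047) in BMDM-WT. The call at 5 h was lost with DESeq2 (Wald test, or its size factors in edgeR) and without 1 BMDM-WT library of 0 h (replicate 3, adjusted p = 0.061). An exon of Aimp2 on the opposite strand overlaps Eif2ak1 over 487 bases. Eif2s1 (NM_026114), the eIF2 alpha subunit that these kinases phosphorylate, rose 1.74-fold at 5 h in BMDM-WT (adjusted p = 3.8e-06) and 1.62-fold in BMDM-Nur77-KO (adjusted p = 2.7e-05) and was not called at 1 or 18 h.

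Among the enzymes, Asns and Mthfd2 had the largest rises, and the members of serine and one-carbon metabolism went in several directions. Asns (NM_012055, chr6:7675165-7693209) makes asparagine from aspartate and glutamine. It stood at 16.7, 18.3, 13.8 and 20.3 CPM in BMDM-WT at 0 h and at 16.9, 19, 17.9 and 20.4 CPM in BMDM-Nur77-KO. At 1 h it was at 20.9, 18.7, 26 and 18.5 CPM and at 19.5, 20, 22.4 and 21.4 CPM, overlapping the values of 0 h. At 5 h the BMDM-WT libraries were at 27.3, 27.4, 27.9 and 31.7 CPM and the BMDM-Nur77-KO libraries at 17.2, 22, 23.6 and 21.1 CPM. After 18 h of LPS it reached 54.7, 52.4, 55.7 and 56.1 CPM and 61.1, 72.5, 62.3 and 58.1 CPM. The rise in BMDM-WT was 1.65-fold at 5 h (log2 fold change 0.72, SE 0.11, adjusted p = 1.3e-06) and 3.16-fold at 18 h (1.66, SE 0.11, adjusted p = 2.6e-14). In BMDM-Nur77-KO it was 0.18 on the log2 scale at 5 h (SE 0.11, adjusted p = 0.16) and 1.77 at 18 h (SE 0.11, adjusted p = 4.2e-15).

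Mthfd2 (NM_008638, chr6:83305704-83326011), a mitochondrial folate dehydrogenase and cyclohydrolase, stood at 22.1, 27.7, 19 and 22.2 CPM in BMDM-WT at 0 h and at 24.9, 30.3, 27.9 and 27.1 CPM in BMDM-Nur77-KO. After 1 h of LPS it was at 25, 24.5, 32.8 and 30.8 CPM and at 26.2, 31.1, 32.4 and 32 CPM, overlapping 0 h. The difference in BMDM-WT was called (0.31, adjusted p = 0.043) and lost in 6 of 14 alternatives. After 5 h of LPS it was at 64.7, 56.3, 56.6 and 59.8 CPM and at 39.7, 48, 53.1 and 50.5 CPM. It then rose at 18 h to 164, 156, 170 and 165 CPM and 191, 199, 205 and 174 CPM. Each time after 1 h was above the one before, and the change at 18 h was 7.17-fold in BMDM-WT (log2 fold change 2.84, SE 0.11, adjusted p = 4.0e-20) and 6.97-fold in BMDM-Nur77-KO (2.80, SE 0.11, adjusted p = 3.9e-20). Shmt2 (NM_001252316), the mitochondrial serine hydroxymethyltransferase that works just before it in the folate pathway, fell instead, to 34% of 0 h at 18 h in BMDM-WT (adjusted p = 1.5e-08) and 47.1% in BMDM-Nur77-KO (adjusted p = 8.0e-06). Mthfd1l (NM_172308), the formate-releasing synthetase that works after it, fell to 52.1% (adjusted p = 3.0e-10) and 56.6% (adjusted p = 4.4e-09). Enzymes of the same mitochondrial route thus moved in opposite directions at 18 h.

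The serine synthesis genes moved less and not together. Phgdh (NM_016966, chr3:98313171-98339969), the first enzyme of the pathway, stood at 5.72, 5.61, 5.75 and 6.53 CPM in BMDM-WT at 0 h and at 3.28, 4.04, 3.22 and 5.41 CPM in BMDM-Nur77-KO. At 1 h it was at 4.41, 4.15, 5.49 and 4.59 CPM and at 3.08, 5.42, 3.83 and 3.9 CPM. At 5 h the values were 6.49, 5.88, 6.99 and 5.2 CPM and 0.327, 2.85, 2.97 and 2.36 CPM. Replicate 1 of BMDM-Nur77-KO was far below the other libraries there, with 3 counts. At 18 h Phgdh was at 8.33, 8.96, 7.83 and 9.67 CPM and at 10.7, 14.4, 11.2 and 7.04 CPM. The rise at 18 h was 1.47-fold in BMDM-WT (adjusted p = 0.033), a call lost without any of 5 libraries (adjusted p up to 0.08), and 2.71-fold in BMDM-Nur77-KO (adjusted p = 3.3e-06).

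Psat1 (NM_001205339, chr19:15905123-15925059), the second enzyme, stood at 59.4, 72, 63.2 and 70.1 CPM in BMDM-WT at 0 h and at 91.4, 102, 91.8 and 88.4 CPM in BMDM-Nur77-KO. After 1 h of LPS it was at 65.1, 61, 76.6 and 75.9 CPM and at 93.9, 89.7, 100 and 99.6 CPM. By 5 h the BMDM-WT libraries rose to 118, 112, 112 and 119 CPM, and the BMDM-Nur77-KO libraries stood at 87.3, 109, 105 and 117 CPM. At 18 h they were at 48.4, 56.2, 53.8 and 49.2 CPM and at 89.9, 96.4, 92.1 and 94.7 CPM. In BMDM-WT Psat1 thus rose 1.74-fold at 5 h (log2 fold change 0.80, SE 0.08, adjusted p = 8.6e-10) and fell to 78.4% at 18 h (-0.35, SE 0.08, adjusted p = 5.8e-04), while in BMDM-Nur77-KO the log2 fold changes of 0.16 at 5 h and 0.00 at 18 h (SE 0.08 each) were not called. Psph (NM_133900), the last step, lay between 2.92 and 5.29 CPM in all groups and was lower at 5 h (70.5% in BMDM-WT, adjusted p = 0.0078). Exons of Psph and of the opposite-strand gene Cct6a, which had a mean of 2136.2 counts per library, overlap over 452 bases, so Psph values are uncertain.

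Aldh18a1 (NM_153554), which makes the precursor of proline, fell to 79.1% at 5 h in BMDM-WT (adjusted p = 0.02), a call lost in 6 of 14 alternatives (adjusted p up to 0.085), and rose 1.51-fold at 18 h (adjusted p = 6.4e-05). Pycr1, which completes proline synthesis, had at most 8 counts in any library. Gpt2 (NM_173866, chr8:85492576-85528902), the mitochondrial alanine aminotransferase, stood at 15.3, 16, 15.1 and 18.3 CPM in BMDM-WT at 0 h and at 26, 27, 23.4 and 26.2 CPM in BMDM-Nur77-KO. At 1 h it was at 16.5, 17.3, 16.8 and 18.8 CPM and at 23.6, 28, 25.3 and 26.1 CPM. At 5 h it was at 11.2, 10.8, 12 and 13.5 CPM and at 10, 13.9, 18 and 19.8 CPM. At 18 h it was at 12.1, 12.6, 12.5 and 13.6 CPM and at 15.3, 16.2, 14.1 and 10.4 CPM. Gpt2 was thus clearly higher in the knockout before and 1 h after LPS and overlapped between the genotypes later, and it fell with LPS in both, to 73.3% at 5 h in BMDM-WT and 60.3% in BMDM-Nur77-KO. Cth, the cystathionine gamma-lyase of cysteine synthesis, and Bcat1, the cytosolic branched-chain aminotransferase, had at most 9 and 32 counts per library.

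The amino acid transporters went in different directions. Slc3a2 (NM_008577), the heavy chain CD98 that partners the light chains of leucine and cystine exchange, was the most abundant member per length at 0 h, with 108 RPKM in BMDM-WT. It rose from a mean of 196 CPM in BMDM-WT at 0 h to 232, 313 and 561 CPM at 1, 5 and 18 h, each of them called. The call at 1 h was lost without replicate 1 or 2 of BMDM-WT at 0 h or replicate 1 or 2 at 1 h (adjusted p up to 0.074). Slc7a5 (NM_011404, chr8:121881146-121907686), its leucine-transporting light chain LAT1, stood at 11.3, 14.7, 12.2 and 14.1 CPM in BMDM-WT at 0 h and at 11.8, 13, 11.8 and 12.4 CPM in BMDM-Nur77-KO. After 1 h of LPS it was at 12.4, 11.8, 16.7 and 14.5 CPM and at 12.1, 12.6, 14.8 and 15.2 CPM. After 5 h of LPS it was at 15.7, 16.5, 17.3 and 12.9 CPM and at 2.84, 8.47, 10.5 and 9.43 CPM, with replicate 1 of BMDM-Nur77-KO the lowest. The 18 h libraries held 11.2, 11.6, 10.9 and 12.5 CPM and 15.9, 21.2, 20.1 and 11 CPM. The light chain was thus called at no time in BMDM-WT, in which its heavy chain rose 2.86-fold at 18 h. In BMDM-Nur77-KO Slc7a5 was called lower at 5 h, a call lost in the fit to the compared libraries only (adjusted p = 0.12). At 18 h it was called higher there, a call lost in 5 of 14 alternatives (adjusted p up to 0.14).

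Slc38a2 (NM_175121), the neutral amino acid transporter SNAT2 induced by amino acid starvation, had a mean of 70.3 CPM in BMDM-WT at 0 h. It rose 2.36-fold at 1 h (adjusted p = 1.1e-10), fell to 25.9% of 0 h at 5 h (adjusted p = 2.2e-15) and stood at 79.4% at 18 h (adjusted p = 0.0083). Slc1a5 (NM_009201), the glutamine transporter ASCT2, was not called at 1 h and then fell, to 46.3% at 5 h (adjusted p = 1.7e-06) and 14% at 18 h (adjusted p = 4.4e-14) in BMDM-WT, and to 8.81% at 18 h in BMDM-Nur77-KO (adjusted p = 4.2e-16). Its group means went from 72.1 to 10.1 CPM and from 82.5 to 7.24 CPM. Slc1a4, the related alanine, serine and cysteine transporter, was not tested and had means of 0.895 CPM at 0 h and 2.95 CPM at 18 h in BMDM-WT, with at most 58 counts per library. Slc6a9, the glycine transporter GLYT1, was not tested either and had means of 0.0752 and 1.12 CPM, with at most 26 counts.

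Differences of the tested members between the genotypes lay between -1.49 and 0.89 on the log2 scale. Those with LPS in BMDM-WT lay between -2.89 and 5. Of the members called between the genotypes, Phgdh, Slc7a5 and Gpt2 differed more between them at some time than with LPS in BMDM-WT at any time. For Phgdh and Slc7a5 this was at 5 h, with or without BMDM-Nur77-KO replicate 1. For Psat1 the largest values were close, 0.85 between the genotypes and 0.80 with LPS (SE 0.08 each). Before LPS, 3 of 28 members were called higher by edgeR in the knockout and 0 lower, where 6.29% of all genes were higher and 6.38% lower. Gpt2 was higher by 0.67 on the log2 scale (SE 0.13, adjusted p = 7.5e-04), Psat1 by 0.50 (SE 0.08, adjusted p = 9.9e-05) and Ppp1r15b by 0.17 (SE 0.06, adjusted p = 0.048), the last a call lost in 9 of 14 alternatives. At an unadjusted p under 0.05 there were 7 higher and 3 lower. DESeq2's Wald test called 4 higher and 0 lower. At 1 h, 3 were higher and 0 lower by edgeR (3.47% and 3.04% of all genes), with 5 and 3 at an unadjusted p under 0.05 and 4 and 0 by DESeq2. These were Ddit3 with 0.56 (SE 0.11, adjusted p = 0.0013), Gpt2 with 0.57 (SE 0.13, adjusted p = 0.0051) and Psat1 with 0.46 (SE 0.08, adjusted p = 3.8e-04). In the same comparison at 0 h, 2 of 4 tested neutrophil markers were higher and 2 of 7 macrophage markers lower in BMDM-Nur77-KO, and their part in these differences was not tested. The median difference over the tested members was 0.06 at 0 h and 0.01 at 1 h, with all genes at -0.03 and 0.00.

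At 5 h, the knockout had 4 higher and 5 lower members (13.5% and 10.6% of all genes), with a median of -0.12 beside 0.02 for all genes. The stress outputs Ddit3 and Gadd45a and the phosphatase subunit Ppp1r15a were among the higher ones, while Atf4, Trib3, Sesn2 and Nupr1 were not called. Ddit3 was higher by 0.88 (SE 0.12, adjusted p = 7.8e-06), Gadd45a by 0.73 (SE 0.13, adjusted p = 2.9e-04), Ppp1r15a by 0.69 (SE 0.10, adjusted p = 1.0e-05) and Eif2ak1 by 0.41 (SE 0.14, adjusted p = 0.028). The lower ones were all enzymes or transporters of amino acid and folate metabolism. Most tested members of these roles were not called, namely Psat1, Psph, Shmt2, Aldh18a1, Gpt2, Slc3a2, Slc38a2 and Slc1a5. Phgdh was lower by 1.49 on the log2 scale, at 35.6% of BMDM-WT (SE 0.29, adjusted p = 4.5e-04), and Slc7a5 was at 50.6% (SE 0.22, adjusted p = 0.0019). Mthfd1l was at 70.1%, Asns at 73.6% and Mthfd2 at 80.6% (adjusted p = 5.0e-04, 0.006 and 0.032). Without BMDM-Nur77-KO replicate 1 the differences were -1.17 for Phgdh (adjusted p = 6.5e-04), -0.72 for Slc7a5 (adjusted p = 0.0037), -0.44 for Mthfd1l (adjusted p = 0.0034), -0.36 for Asns (adjusted p = 0.031) and 0.74 for Ddit3 (adjusted p = 4.1e-05). The differences of -0.23 for Mthfd2 and 0.17 for Eif2ak1 were then no longer called (adjusted p = 0.15 and 0.32). At this time the knockout had 1 higher and 2 lower of 7 macrophage markers, and their part in these differences was not tested. Fitted to the 5 h libraries alone, none of the 5 lower members was called by edgeR (adjusted p 0.065 to 0.16), while Ddit3, Gadd45a and Ppp1r15a kept their calls.

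At 18 h, 10 members were higher and 1 lower (11.7% and 9.8% of all genes), with a median of 0.22 beside -0.01 for all genes. The upper end was Psat1 with 0.85 (SE 0.08, adjusted p = 5.5e-09), Gadd45a with 0.77 (SE 0.12, adjusted p = 1.2e-05) and Ppp1r15a with 0.69 (SE 0.10, adjusted p = 2.3e-06). The 10 include Chac1 with 0.89 (SE 0.30), which passed the filter on low values only through the BMDM-Nur77-KO libraries of this time (1.53 RPKM, against 0.825 RPKM in BMDM-WT), so its difference is given as a description. Slc7a5 followed with 0.56 (adjusted p = 0.047), Ddit3 with 0.45 (adjusted p = 0.0011), Slc3a2 with 0.38 (adjusted p = 6.4e-04), Ppp1r15b with 0.37 (adjusted p = 7.4e-06) and Atf4 with 0.19 (SE 0.06, adjusted p = 0.026). Nupr1 was higher by 0.38 with an adjusted p just under 0.05. Its value in replicate 4 of BMDM-Nur77-KO was 143 CPM, and without that library the difference was 0.22 (adjusted p = 0.3). The PERK gene Eif2ak3 was the lower one, at 75.3% of BMDM-WT (SE 0.08, adjusted p = 1.6e-04). Leaving out replicate 4 of BMDM-Nur77-KO left 10 higher and 1 lower, whereas leaving out replicate 1 or 3 of BMDM-WT left 6 higher. Chac1 was lost in 4 of 14 alternatives, Atf4 in 5 and Slc7a5 and Nupr1 in 9. Of 7 macrophage markers 4 were lower and 1 higher in BMDM-Nur77-KO at 18 h, the 1 tested dendritic marker of 4 was higher by 0.87 on the log2 scale, and their part in these differences was not tested. Asns and Mthfd2 did not overlap between the genotypes at 18 h, and their differences of 0.21 (SE 0.10) and 0.23 (SE 0.10) were not called (adjusted p = 0.15 and 0.1).

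**Figure D3:**
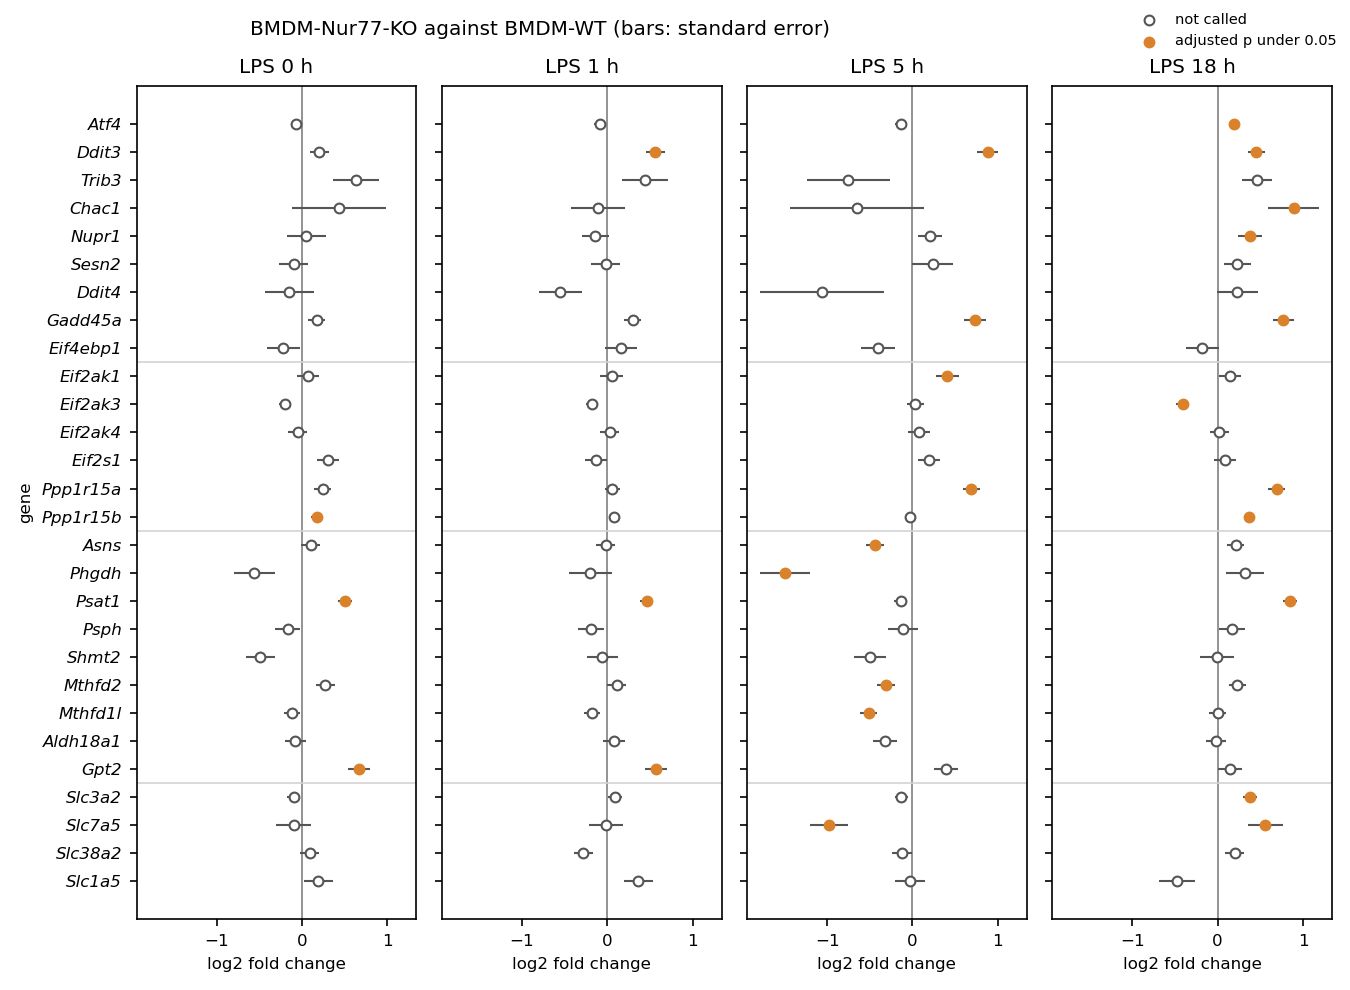
Log2 fold change of BMDM-Nur77-KO against BMDM-WT for the 28 tested members at 0, 1, 5 and 18 h of LPS, with genes in rows by role, bars for the standard error and filled points where the adjusted p is under 0.05. The 4 panels hold 3, 3, 9 and 11 filled points, and Phgdh at 5 h lies farthest to the left (-1.49). The open points of Chac1 and Ddit4 at 5 h rest on 0 to 4 counts a library.

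Whether the response to LPS differed between the genotypes was tested with the interaction term. At 1 h, 0 members were called by edgeR (0.0443% of all genes higher and 0.0266% lower), 3 had an unadjusted p under 0.05, and 0 were called by DESeq2's Wald test. At 5 h, 1 was higher and 2 lower (1.73% and 1.37% of all genes). Ddit3 fell less in BMDM-Nur77-KO (interaction 0.68 on the log2 scale, SE 0.17, adjusted p = 0.016), and Psat1 (-0.64, SE 0.12, adjusted p = 0.0015) and Mthfd2 (-0.58, SE 0.15, adjusted p = 0.026) rose less. With the 5 h library labelled replicate 1 of BMDM-Nur77-KO left out these values were 0.54, -0.56 and -0.50, all still called, and a second member was called higher. Fitted to the compared libraries only, Ddit3 (0.66, adjusted p = 0.082) and Mthfd2 (-0.61, adjusted p = 0.089) lost their calls, and Psat1 was still called (-0.66, adjusted p = 0.017). Leaving out either replicate 2 or 3 of BMDM-Nur77-KO at 0 h or replicate 1 or 3 of BMDM-WT at 0 h or replicate 1 of BMDM-WT at 5 h left 1 lower. At 18 h, 3 were higher and 0 lower (5.36% and 4.03% of all genes). Slc3a2 rose more in BMDM-Nur77-KO (0.48, SE 0.11, adjusted p = 0.0045), as did Ppp1r15a (0.45, SE 0.14, adjusted p = 0.035), and Gadd45a fell less (0.60, SE 0.16, adjusted p = 0.01). The call of Ppp1r15a was lost in 8 of 22 alternatives, the replicate block and 7 fits without 1 library (adjusted p up to 0.087). DESeq2's Wald test called 7 higher and 1 lower at 18 h, and edgeR 6 higher without replicate 4 of BMDM-Nur77-KO.

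Other genes of the pathway were described from lists drawn up by function. Among 14 cytosolic aminoacyl-tRNA synthetase and tRNA export genes linked to ATF4, 0 were called by edgeR in BMDM-WT at 1 h (10.2% of all genes higher and 10.2% lower). There 0 had an unadjusted p under 0.05. At 5 h 4 were higher and 6 lower, and at 18 h 8 were higher and 2 lower. Of all genes 30% were higher and 40.1% lower at 5 h, which the list's counts lie close to, and 32.3% higher and 33.9% lower at 18 h. The list's median log2 fold change was -0.10 at 5 h and 0.37 at 18 h, with all genes at -0.14 and -0.01. Wars, which charges tRNA with tryptophan, rose by 2.49 on the log2 scale at 5 h and 1.52 at 18 h, Aars (alanine) by 0.75 and 1.55, and Cars (cysteine) by 0.26 and 1.40. Among the 7 other cytosolic synthetase genes, 3 were higher and 3 lower at 5 h and 1 higher and 4 lower at 18 h, with medians of -0.01 and -0.34. Rars (arginine) was the one with the largest change, 1.37 at 5 h. In BMDM-Nur77-KO against BMDM-WT, 0 genes of the ATF4-linked list were called at 0 h (6.29% of all genes higher and 6.38% lower). At 1 h, 1 was higher and 0 lower (3.47% and 3.04%). At 5 h, 0 were higher and 4 lower (13.5% and 10.6%), and at 18 h, 4 were higher and 0 lower (11.7% and 9.8%). At 0 h, 1 was higher and 2 lower at an unadjusted p under 0.05. Those of 18 h included Wars with 0.67, Aars with 0.25 and Cars with 0.22. Alternative fits and fits without a library were compared for the members only. How the values of this list depend on the BMDM-Nur77-KO libraries that stood apart was not tested.

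**Figure D4:**
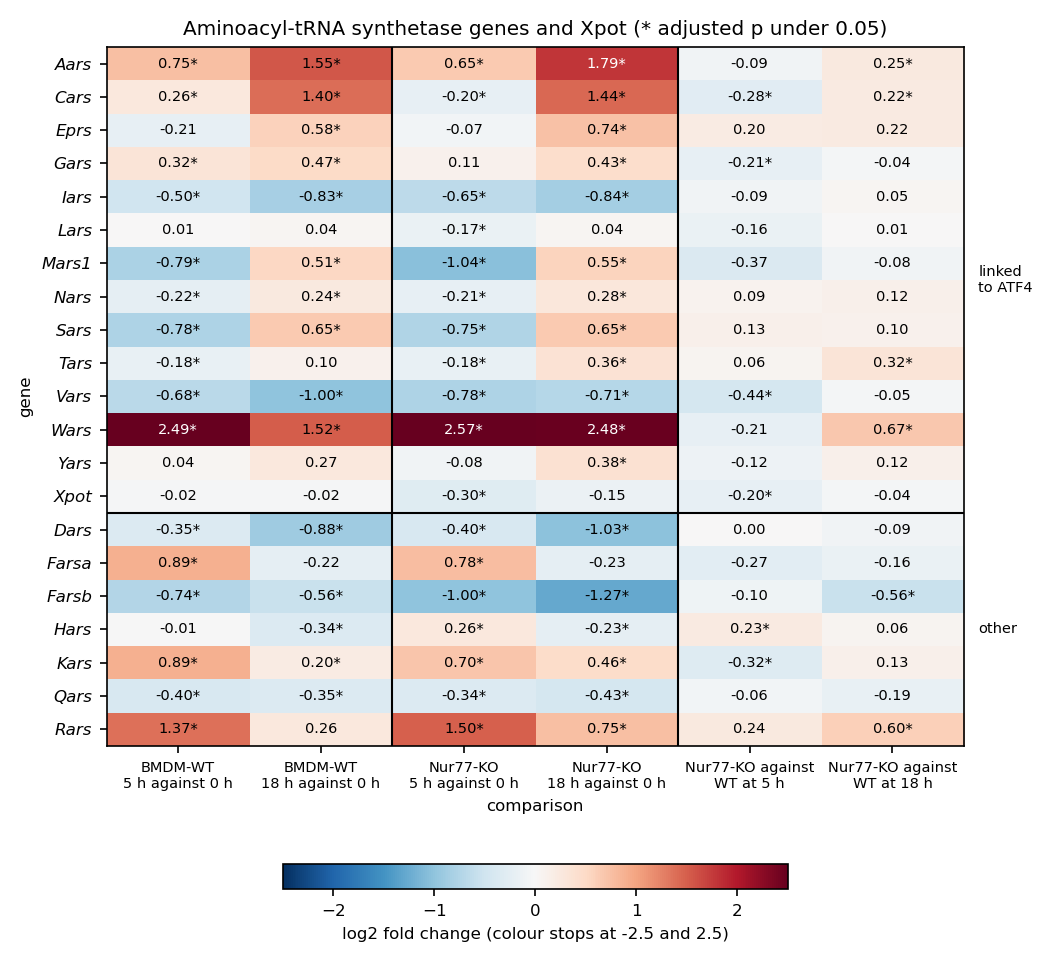
Log2 fold change of 14 ATF4-linked genes (13 cytosolic aminoacyl-tRNA synthetases and the tRNA exporter Xpot, upper block) and 7 other cytosolic synthetases (lower block) with LPS in each genotype and between the genotypes, with an asterisk where the adjusted p is under 0.05. At 18 h in BMDM-WT, 8 of 14 genes of the upper block are higher and 2 lower, against 1 higher and 4 lower of 7 in the lower block. Of all genes 32.3% are higher and 33.9% lower there.

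Of 16 further ATF4 target genes 11 were tested. In BMDM-WT 6 were higher and 0 lower at 1 h (10.2% and 10.2% of all genes), 5 higher and 6 lower at 5 h (30% and 40.1%), and 7 higher and 0 lower at 18 h (32.3% and 33.9%). Slc7a11, the light chain of the cystine transporter that pairs with Slc3a2, rose 26.7-fold at 5 h and 12.9-fold at 18 h. Jdp2, a bZIP partner, rose 13.2-fold at 5 h and 4.43-fold at 18 h. Gdf15, a stress hormone, rose 6.41-fold at 1 h, fell to 6.67% of 0 h at 5 h and was 2.78-fold above it at 18 h. Between the genotypes, 1 of the 11 was higher in BMDM-Nur77-KO and 0 lower at 0 h (6.29% and 6.38% of all genes). At 1 h, 0 were higher and 1 lower (3.47% and 3.04%), and at 5 h, 0 were higher and 2 lower (13.5% and 10.6%). At 18 h, 6 were higher and 0 lower (11.7% and 9.8% of all genes), among them Jdp2 by 1.97 on the log2 scale (107 against 27.4 CPM), Slc7a11 by 0.93 and Gdf15 by 0.77. Their dependence on the BMDM-Nur77-KO libraries that stood apart was not tested. Of 10 other one-carbon and glycine genes 6 were tested, and 1 was higher and 5 lower in BMDM-WT at 18 h (32.3% and 33.9% of all genes). The higher gene was Aldh1l1, at 3.53-fold its level at 0 h, while the cytosolic Mthfd1 fell to 29.9% and Mthfd2l to 42.9% of 0 h.

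Of 11 genes for other eIF2 and eIF2B subunits and partners of GCN2 in the list, 2 were higher and 3 lower in BMDM-WT at 5 h (30% and 40.1% of all genes) and 4 higher and 4 lower at 18 h (32.3% and 33.9%), counts near or below those shares. Eif2ak2, which encodes the remaining eIF2 kinase PKR, an interferon-induced sensor of double-stranded RNA, rose 10.1-fold at 5 h and 4.06-fold at 18 h. At 5 h it stood at 799 CPM in BMDM-WT, when Eif2ak3 and Eif2ak4 were at their lowest. Impact, an inhibitor of GCN2 activation, fell to 21.9% of 0 h at 5 h together with Eif2ak4 and was not called at 18 h. In BMDM-Nur77-KO the changes at 5 h were 3.49 for Eif2ak2 and -2.04 for Impact on the log2 scale. Between the genotypes Impact was higher in BMDM-Nur77-KO by 0.42 at 5 h and 0.36 at 18 h, and Eif2ak2, with 0.17 and 0.27, was not called at either time. Here too, the dependence on the BMDM-Nur77-KO libraries that stood apart was not tested.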

How the data were processed

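RNA-seq (KAPA mRNA HyperPrep) was read from 32 libraries, 4 in each of 8 groups. Per the sources, the authors used CASAVA 1.8.2, aligned reads with HISAT2 2.1.0 to mm10, filtered by mapping quality with SAMtools and counted with HOMER. Libraries were strand-specific, and counting used HOMER's default settings, whose strand option is not named in the sources used here. The deposited values are HOMER's raw tag counts per RefSeq transcript. They come in multiples of 0.5, so the deposited values were treated like expected counts and rounded to whole numbers. Totals over the transcript kept for each gene were 8742362 to 15780926 counts, which limits genes of few counts. Unnamed transcripts held 0.233 to 1.37% of the counts over all transcripts.
Gene names came from RefSeq annotation, and the transcript with the highest mean count stood for its gene. Tests covered genes whose group mean passed 1 RPKM somewhere, with the quasi-likelihood test of edgeR 4.0.16 (R 4.3.3, TMM scaling, 8 group means) and Benjamini-Hochberg adjustment. The fit was tested on simulated data. Alternatives were the Wald test and size factors of DESeq2 1.42.0, edgeR's filterByExpr, a replicate block, summed transcripts, fits to the compared libraries only, and leaving out each library. They were compared for the members and not for the genes of the other lists. All members are named with their levels, and values in every library are given for Atf4, Ddit3, Asns, the 6 members with the largest LPS changes in BMDM-WT and the 3 largest called, not overlapping genotype differences at each time. Of each other list up to 3 called genes are named, those with the largest changes in BMDM-WT. A gene of these lists is not reported here and was left out of the list's counts. The members and lists were chosen with earlier results of these data known.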

Additional observations from a re-analysis of the deposited data

Results flagged for a closer look

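In groups of 4 libraries, 15 of 224 member groups (6.7%) had a library whose gap to the others passed Dixon's 95% critical value, where chance flags about 1 in 20. In BMDM-Nur77-KO at 18 h, replicate 4 was high for Nupr1 (143 CPM) and Eif2s1 (144 CPM), replicate 2 for Mthfd1l (11.9 CPM), and replicate 3 was low for Eif2ak4 (25.6 CPM). In BMDM-WT at 18 h, replicate 2 was high for Mthfd1l (10.9 CPM) and low for Eif2ak1 (85.2 CPM), and replicate 3 was low for Eif4ebp1 (16.5 CPM). In BMDM-WT at 5 h, replicate 4 was high for Asns (31.7 CPM) and Eif2s1 (183 CPM), and replicate 2 for Slc1a5 (36.2 CPM). Trib3 was high in replicate 3 of BMDM-Nur77-KO at 5 h (0.959 CPM). Eif2ak4 was low in replicate 4 of BMDM-WT at 1 h (31.1 CPM). At 0 h, Ddit4 was high in replicate 3 (2.12 CPM) and Phgdh in replicate 4 (6.53 CPM) of BMDM-WT, and Slc3a2 in replicate 4 of BMDM-Nur77-KO (190 CPM).

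The response to LPS differed between the genotypes by edgeR's interaction test for 6 members. At 5 h the interaction was 0.68 on the log2 scale for Ddit3 (adjusted p = 0.016), -0.64 for Psat1 (adjusted p = 0.0015) and -0.58 for Mthfd2 (adjusted p = 0.026). At 18 h it was 0.48 for Slc3a2 (adjusted p = 0.0045), 0.45 for Ppp1r15a (adjusted p = 0.035) and 0.60 for Gadd45a (adjusted p = 0.01).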

How the results depend on the processing

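Of 141 called member differences, none changed sign and 27 lost their call in at least 1 alternative, 17 of them in fits to the compared libraries only. With those fits the members called were 3 lower for BMDM-WT at 1 h of LPS, 6 higher and 2 lower between the genotypes at 0 h, 5 and 1 at 1 h, and 0 lower at 5 h, and for the interaction 1 lower at 1 h, 0 higher and 1 lower at 5 h, and 2 lower at 18 h. DESeq2's Wald test called 3 higher and 4 lower for the interaction at 5 h and 7 and 1 at 18 h. The cause was not tested. Leaving out each library in turn gave 4 (without BMDM-Nur77-KO 5 h replicate 1 among others) to 9 (without its replicate 4) lower members between the genotypes at 5 h and 6 (without BMDM-WT 18 h replicate 1 or 3) to 10 higher ones at 18 h. For the interaction it gave 1 to 2 higher (2 without BMDM-Nur77-KO 0 h replicate 1 or 5 h replicate 1 or 4) and 1 to 4 lower (4 without BMDM-Nur77-KO 5 h replicate 3) at 5 h, and 2 (without any 1 of 5 libraries) to 6 (without BMDM-Nur77-KO 18 h replicate 4) higher at 18 h. Samples with the same replicate number had correlations of deviations between -0.5 and 0.46, and those with other numbers between -0.47 and 0.55. In a comparison, 0 to 3 of 4 libraries correlated best with their own number. Whether equal numbers share a mouse cannot be told from these values, and the main fit used no pairing. With the replicate block Ppp1r15b at 0 h (0.17, adjusted p = 0.064) and the interaction of Ppp1r15a at 18 h (0.45, adjusted p just over 0.05) lost their calls, and no other called member did. DESeq2's size factors moved the median of all genes by at most 0.087 on the log2 scale. Members with few counts (Chac1, Trib3, Ddit4) are limited by depth.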
